A study of Mus musculus with 16 samples.

Results

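The mature products of the miR-132 and miR-212 cluster, mmu-miR-132-3p, mmu-miR-132-5p, mmu-miR-212-3p and mmu-miR-212-5p, were followed in the prefrontal cortex of PS19 tauopathy mice and wild-type mice. They were taken by name from the deposited table of cortical non-coding RNA, where they made up 4 of 18488 features and 4 of 1254 mature miRNAs. All 4 passed the filter on low values, a mean of at least 5 normalized counts, which 6024 features passed, 748 of them miRNA features (mature arms and precursors). None of the 4 arms differed detectably between the genotypes. Between the highest and the lowest mouse they differed by 3.85-fold to 5.71-fold in normalized counts, and by 2.22-fold to 3.42-fold when set against the miRNA signal of each library. The arms varied together across mice, less closely on the latter scale.

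The study compared heterozygous PS19 mice, which carry human MAPT with the P301S mutation under the mouse prion protein promoter on a mixed (C57BL/6xC3H)F1 background, with littermates that lacked the transgene (WT). Each genotype had 8 mice with as many males as females, sampled late in the first year of life, and 1 small RNA library was made per mouse. The mutant human tau is made on top of the mouse's own tau, and the strain is one transgenic line. Sex and age are not given for each library, so neither could enter a comparison. The tissue was bulk cortex, in which fewer cells of a type and less RNA per cell cannot be told apart.

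miR-132 and miR-212 are processed from neighbouring hairpins of a single primary transcript. That transcript is switched on by CREB, the transcription factor that links synaptic activity to gene expression, so the cluster is known as a neuronal activity-regulated one. miR-132 is known to act on the growth of dendrites and spines. The cluster is linked to tau because miR-132 is low in the brain in Alzheimer's disease and other tauopathies and because its targets include tau itself and enzymes that modify tau. A miRNA finds its targets mainly through its seed, bases 2 to 8 counted from the 5′ end.

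The mature sequences are shown because they set which arms can share targets. They are given 5′ to 3′ from RefSeq, with the seed in capitals.
mmu-miR-132-3p: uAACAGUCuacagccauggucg
mmu-miR-212-3p: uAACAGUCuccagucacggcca
mmu-miR-132-5p: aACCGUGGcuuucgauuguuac
mmu-miR-212-5p: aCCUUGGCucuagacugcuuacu
The 3p arms of both hairpins carried the same seed, AACAGUC, and were identical over the first 9 bases and at 17 of 22 positions. No other sequence among the 1679 mature mouse names of the RefSeq table had this seed. The 5p arms matched each other at 9 of 22 positions, and neither shared its seed with any other mature miRNA in that table. The cluster thus held 3 seeds in 4 arms.

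Both hairpins lie on the plus strand of chromosome 11 in GRCm38.p6, and are shown because the arms measured here are cut from them. The capitals mark the mature 5p arm and then the mature 3p arm.
Mir212: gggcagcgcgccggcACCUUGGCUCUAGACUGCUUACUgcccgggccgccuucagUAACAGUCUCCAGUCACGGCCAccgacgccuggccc
Mir132: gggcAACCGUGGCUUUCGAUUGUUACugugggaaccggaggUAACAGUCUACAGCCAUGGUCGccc
Mir212 spans chr11:75173388-75173478 and Mir132, downstream of it, spans chr11:75173682-75173747, with 203 bases between them. Within these hairpins the arms lie at chr11:75173403-75173425 (miR-212-5p), chr11:75173443-75173464 (miR-212-3p), chr11:75173686-75173707 (miR-132-5p) and chr11:75173723-75173744 (miR-132-3p). In the GENCODE M21 annotation both hairpins sit in the first intron of the non-coding gene 1700016P03Rik, between exon 1, which ends at position 75172597, and exon 2, which starts at position 75173978. The neighbouring protein-coding genes Hic1 and Ovca2 lie on the opposite strand.

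Values are normalized counts, that is, read counts divided by a size factor for each library. The 16 libraries held 13187096 to 23058568 recovered reads assigned to features, and miRNA features took 15.0% to 32.6% of the normalized signal. Behind each value lay 7265 to 20580 reads for miR-132-3p, 2533 to 9790 for miR-132-5p, 2479 to 8089 for miR-212-5p and 191 to 628 for miR-212-3p, so counting error was small beside the spread between mice. The abundant neuronal miRNAs miR-128-3p, miR-124-3p and miR-129-5p had at least 184903, 5333 and 18182 normalized counts in every library, while the less abundant neuronal marker miR-137-3p went down to 10.0, with a median of 46.2. Summed neuronal markers lay between 218166 and 832804 in PS19 libraries, and between 292205 and 838556 in WT libraries. The 4 myeloid markers summed to 52.7 to 208 in PS19 and 31.7 to 87.1 in WT, and only mmu-miR-155-5p was abundant enough to test. It had 82.5 normalized counts in PS19 and 44.3 in WT (limma, adjusted p = 0.9998). Its unadjusted p was below 0.05, as for 2.41% of tested miRNA features. It made up most of the sums, with a median of 48.4 beside 2.2 for miR-142a-3p, 1.9 for miR-142a-5p and 3.0 for miR-223-3p. Oligodendrocyte, endothelial and red blood cell markers and miRNAs of tissues other than cortex overlapped between the genotypes in their sums, and 0 of their tested members were below an unadjusted p of 0.05. The library codes in the deposited table began with G for all 8 PS19 libraries, while the WT libraries had 2 coded G, 4 coded F and 2 coded A. What the letter stands for is not stated. Only 2 WT libraries share the letter of PS19, and between PS19 and the WT libraries coded F or A the letter cannot be told apart from genotype.

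miR-132-3p, the arm that carries most of the known functions of the cluster, was the most abundant of the 4 and ranked 41 of 1254 mature miRNAs. In the PS19 libraries it ran from 6621 to 17773 normalized counts, with a median of 11886. In the WT libraries it ran from 5381 to 20695, with a median of 11251. All 8 PS19 values lay inside the WT range. The means were 11835 ± 4418 in PS19 and 11964 ± 5040 in WT (SD, n = 8 each).

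On the log2(value + 1) scale miR-132-3p differed by 0.01 ± 0.28 (SE) between PS19 and WT (limma, p = 0.976, adjusted p = 0.9998; two-sided exact permutation p = 0.978). The 95% interval of that difference ran from -0.57 to 0.59, which spans levels from 32.7% lower to 50.3% higher in PS19. At the threshold of an adjusted p under 0.05, 0 of 4 arms were called, against 0% of the 6024 tested features. At an unadjusted p under 0.05, 0 of 4 arms were called as well, against 4.0% of all tested features and 2.41% of the 748 tested miRNA features. Over the whole table limma gave 241 features at an unadjusted p under 0.05, edgeR gave 265 and DESeq2 gave 283, and by neither of these tools was an arm of the cluster called.

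miR-132-5p, the partner arm of the same hairpin with its own seed, ran from 1869 to 10673 normalized counts in PS19 (median 5289). In WT it ran from 1977 to 9845 (median 4869). All 8 WT values lay inside the PS19 range, and the mean was 5599 ± 3185 (SD, n = 8) in PS19 against 5221 ± 2532 (SD, n = 8) in WT. The log2 difference was 0.02 ± 0.36 (SE), with a 95% interval from -0.73 to 0.78 (limma, p = 0.948, adjusted p = 0.9998; exact permutation p = 0.955).

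miR-212-5p, the main arm of the other hairpin in these libraries, ran from 1813 to 7682 normalized counts in PS19 (median 4543). In WT it ran from 2005 to 8134 (median 4272). The groups overlapped almost entirely, with means of 4696 ± 2109 in PS19 and 4926 ± 2267 in WT (SD, n = 8 each). The log2 difference was -0.08 ± 0.33 (SE), with a 95% interval from -0.75 to 0.60 (limma, p = 0.818, adjusted p = 0.9998; exact permutation p = 0.837).

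miR-212-3p, which shares its seed with miR-132-3p, was the least abundant arm and ranked 170 of 1254. PS19 libraries held 162 to 567 normalized counts (median 340), and WT libraries held 142 to 610 (median 354). All 8 PS19 values again lay inside the WT range, with means of 358 ± 129 in PS19 and 373 ± 173 in WT (SD, n = 8 each). The log2 difference was 0.01 ± 0.31 (SE), with a 95% interval from -0.63 to 0.65 (limma, p = 0.969, adjusted p = 0.9998; exact permutation p = 0.973). For both 3p arms the mean of the counts was slightly lower in PS19 while the log2 difference was slightly above 0, so the measures gave no common direction.

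**Figure D1:**
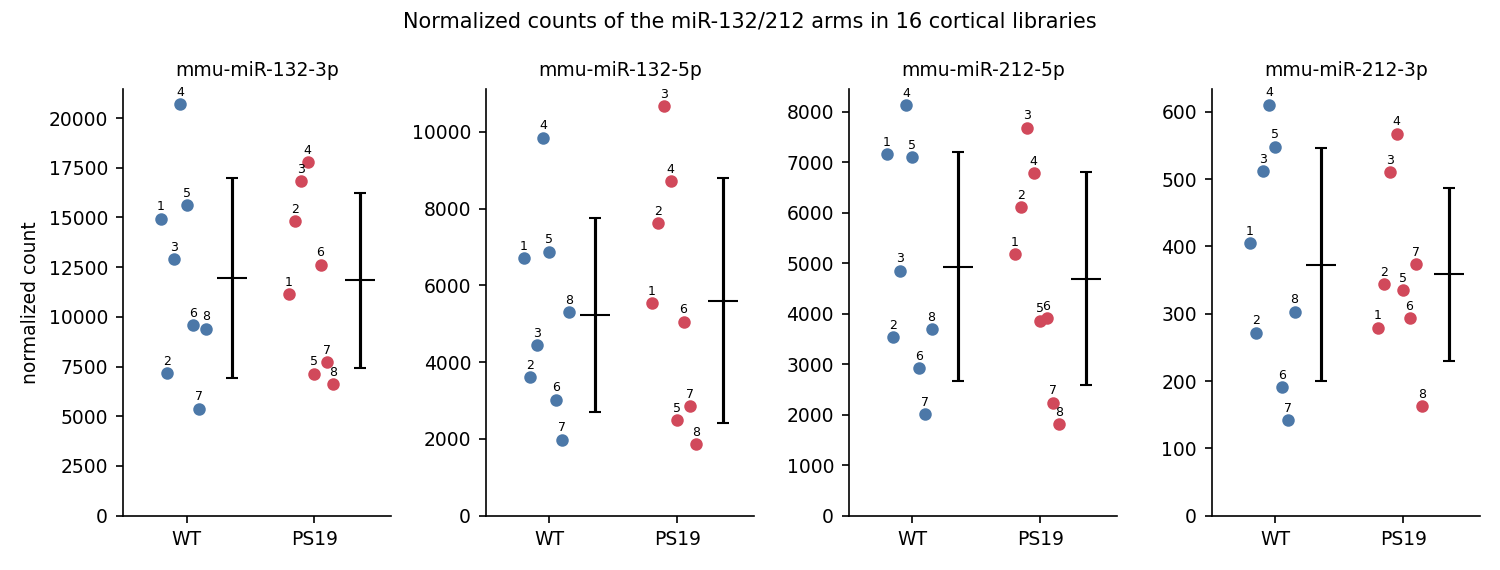
Normalized counts (linear axes from 0, a scale for each panel) of the 4 arms in the 8 WT libraries (blue) and 8 PS19 libraries (red), each point 1 mouse labelled with its replicate number and the black bar the mean ± SD. In every panel the groups overlap over nearly their whole range: miR-132-3p averaged 11964 in WT and 11835 in PS19.

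The table also holds a row for each hairpin precursor, whose reads may overlap those of the mature arms, because how reads were divided between the rows is not given in the sources used here. The mmu-mir-132 row averaged 2890 ± 1562 normalized counts in PS19 and 3445 ± 1728 in WT (SD, n = 8 each), a log2 difference of -0.31 ± 0.36 (SE; exact permutation p = 0.456). The mmu-mir-212 row averaged 84.9 ± 37.4 in PS19 and 93.2 ± 39.9 in WT (SD, n = 8 each), a log2 difference of -0.16 ± 0.34 (SE; exact permutation p = 0.675). Neither precursor passed limma's test (adjusted p = 0.9998 for both).

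The lowest PS19 value of each arm came from PS19 replicate 8, and the lowest WT value of each arm from WT replicate 7. These were also the libraries with the smallest miRNA share of their genotype, 18.2% and 15.0%. Without WT replicate 7, the log2 differences were -0.14 for miR-132-3p, -0.15 for miR-132-5p, -0.16 for miR-212-3p and -0.24 for miR-212-5p. Without PS19 replicate 8, they were 0.11 for miR-132-3p, 0.22 for miR-132-5p, 0.16 for miR-212-3p and 0.10 for miR-212-5p. In no fit that left out a library did an arm pass the test, and the smallest adjusted p over all alternatives was 0.945.

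Among WT mice the libraries coded G lay near both ends of the range, with miR-132-3p at 7173 normalized counts in WT replicate 2 and 20695 in WT replicate 4. The 4 coded F ran from 5381 to 15619 and the 2 coded A were at 9406 and 12911, so the letters overlapped. Restricted to the G libraries, 8 PS19 against 2 WT, the log2 difference was -0.14 for miR-132-3p, -0.33 for miR-132-5p, -0.27 for miR-212-3p and -0.35 for miR-212-5p. The median over the 748 tested miRNA features was -0.34 in the same fit. None of the arms passed the test, and the widest of these intervals, for miR-132-5p, ran from -1.55 to 0.90.

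**Figure D2:**
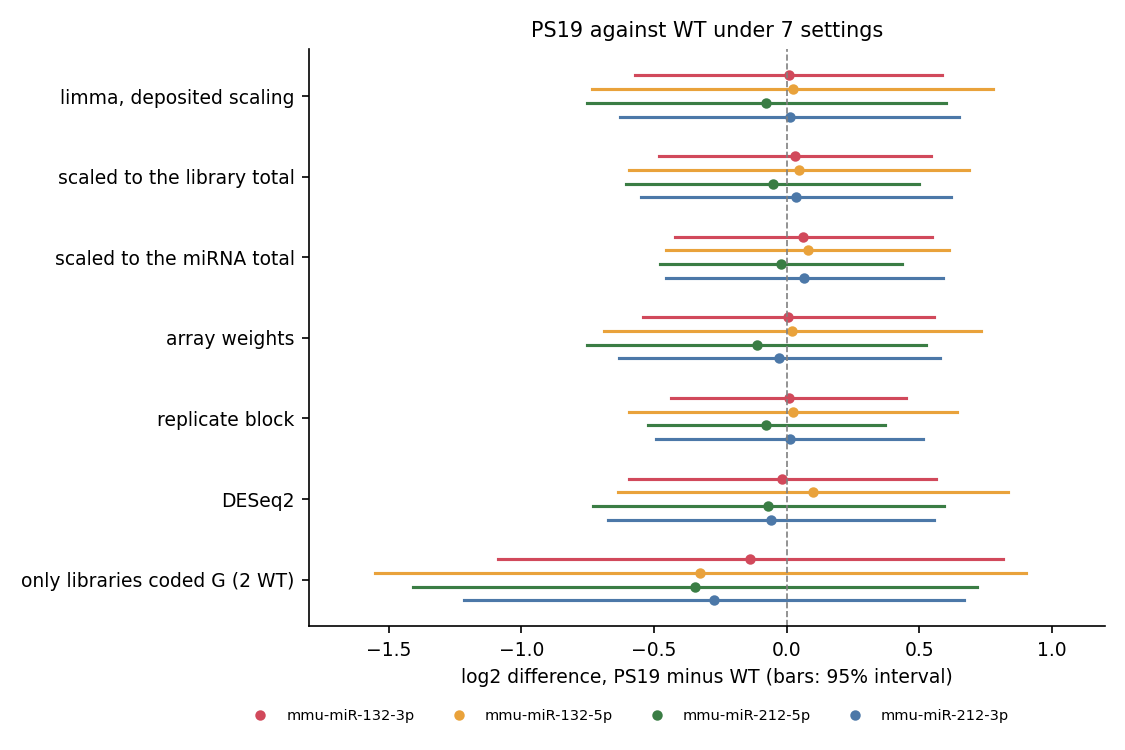
Log2 difference between PS19 and WT (points, PS19 minus WT) with 95% intervals (bars) for the 4 arms (colours), by the way the table was scaled, fitted or restricted. All intervals span 0, and of the rows drawn the bottom one, with the 2 WT libraries coded G, has the widest ones (miR-132-5p from -1.55 to 0.90).

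The cluster was next set against the other miRNAs. The 748 tested miRNA features had a median log2 difference of -0.12, with 500 lower and 248 higher in PS19, and all 6024 features had a median of -0.02. Against that, the differences of the 4 arms lay between -0.08 and 0.02. Among the 748, 728 differed in size by more than miR-132-3p did, 718 by more than miR-212-3p, 683 by more than miR-132-5p and 591 by more than miR-212-5p.

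The arms were not unusually steady between mice of a genotype. The within-group SD of log2 values was 0.61 for miR-132-3p, and 23 of the 31 tested miRNA features with a mean within 2-fold of it varied more. miR-132-5p had an SD of 0.83, which only 5 of 47 such features exceeded, and miR-212-5p had an SD of 0.73, which 14 of 51 exceeded. miR-212-3p, at 0.66, lay in the middle, with 46 of 97 above it. miR-132-3p was thus on the steadier side for its level and miR-132-5p on the more variable side, although both come from the same hairpin.

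**Figure D3:**
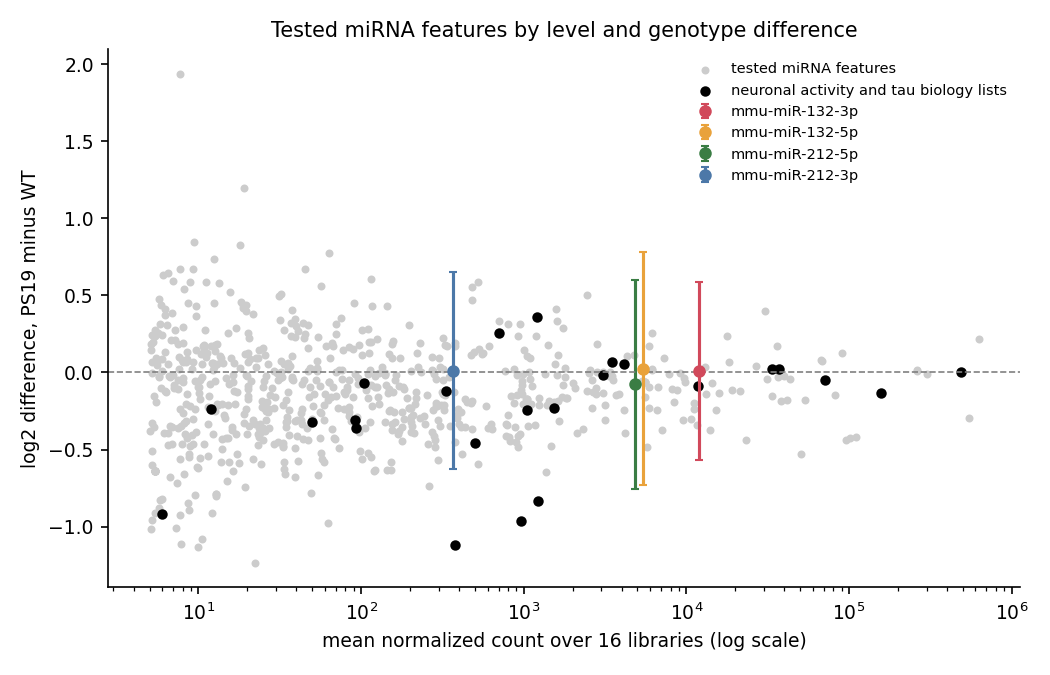
Each tested miRNA feature (grey) by its mean normalized count over the 16 libraries (log axis) and its log2 difference, PS19 minus WT, with the 4 arms in colour (bars, 95% intervals) and the miRNAs of the neuronal activity and tau biology lists in black. The arms lie between -0.08 and 0.02, close to 0 at all their levels.

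Of 13 other miRNAs known to respond to neuronal activity or to act at synapses, 12 were abundant enough to test and 0 passed at an adjusted p under 0.05. In value 3 were higher and 9 lower in PS19. Their median log2 difference was -0.28, beside -0.12 over all tested miRNA features. miR-184-3p was the one of the 12 below an unadjusted p of 0.05, beside 2.41% of all tested miRNA features. It had 236 ± 165 normalized counts in PS19 and 520 ± 453 in WT (SD, n = 8 each). Its log2 difference was -1.12 ± 0.52 (SE, adjusted p = 0.9998 by limma). The next lowest were miR-183-5p, miR-96-5p and miR-182-5p at -0.96, -0.92 and -0.84. Each of these had a WT SD above its WT mean (1493 ± 1778 for miR-183-5p). At the other end, miR-485-5p, from the large imprinted miRNA cluster of mouse brain, differed by 0.07 ± 0.22 (SE; 3583 against 3359 normalized counts). miR-134-5p, which limits the size of dendritic spines, had 4116 ± 1663 in PS19 and 4165 ± 2100 in WT (SD, n = 8 each).

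Of 15 miRNAs tied to tau or to enzymes that modify it, 13 were tested and 0 passed at an adjusted p or at an unadjusted p under 0.05, the smallest unadjusted p being 0.294. In value 4 were higher and 9 lower, with a median of -0.12, the same as over all tested miRNA features. The range ran from -0.36 ± 0.35 (SE) for miR-153-3p, which targets the amyloid precursor protein, to 0.36 ± 0.33 (SE) for miR-146a-5p, an inflammation-induced miRNA. miR-138-5p is in both lists and is counted in each, with a log2 difference of -0.24 ± 0.38 (SE).

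Levels of different arms were compared per base of mature sequence. miR-132-3p had 541 normalized counts per base over the 16 libraries, miR-132-5p 246, miR-212-5p 209 and miR-212-3p 16.6. In each library miR-132-3p exceeded every other arm and miR-212-3p was below every other arm. miR-132-5p and miR-212-5p were neighbours that did not separate, since per base miR-212-5p was the lower in 13 of 16 libraries and the higher in 3. In normalized counts miR-212-5p was also the higher in WT replicate 5 (7095 against 6874) and WT replicate 7 (2005 against 1977).

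The hairpins had opposite arm balances. In miR-132 the 3p arm was the more abundant in 16 of 16 libraries, on average 2.34-fold per base and between 1.58-fold and 3.54-fold. In miR-212 the 5p arm was the more abundant in 16 of 16 libraries, on average 12.3-fold and between 5.72-fold and 17.7-fold. Put as the log2 ratio of 3p to 5p per base, miR-132 had 1.22 ± 0.37 in PS19 and 1.24 ± 0.29 in WT, and miR-212 had -3.58 ± 0.51 in PS19 and -3.67 ± 0.26 in WT (SD, n = 8 each). The genotypes differed by -0.02 for miR-132 and by 0.09 for miR-212, less than the pooled within-group SD of 0.33 and 0.41. Ligation and amplification act on each small RNA sequence differently, and their part in the balances was not tested.

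Since both 3p arms carry the same seed, their normalized counts were summed. Names of the table that were not found in RefSeq were not searched for that seed. The sum was 12194 ± 4517 normalized counts in PS19 and 12337 ± 5197 in WT (SD, n = 8 each). miR-132-3p supplied 96.9% ± 0.97 of it in PS19 and 97.0% ± 0.62 in WT, and between 95.4% and 98.0% in single libraries. Per base, miR-132-3p exceeded its seed partner by 32.8-fold on average. The log2 ratio of the pair was 5.04 ± 0.43 in PS19 and 5.04 ± 0.32 in WT (SD, n = 8 each).

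**Figure D4:**
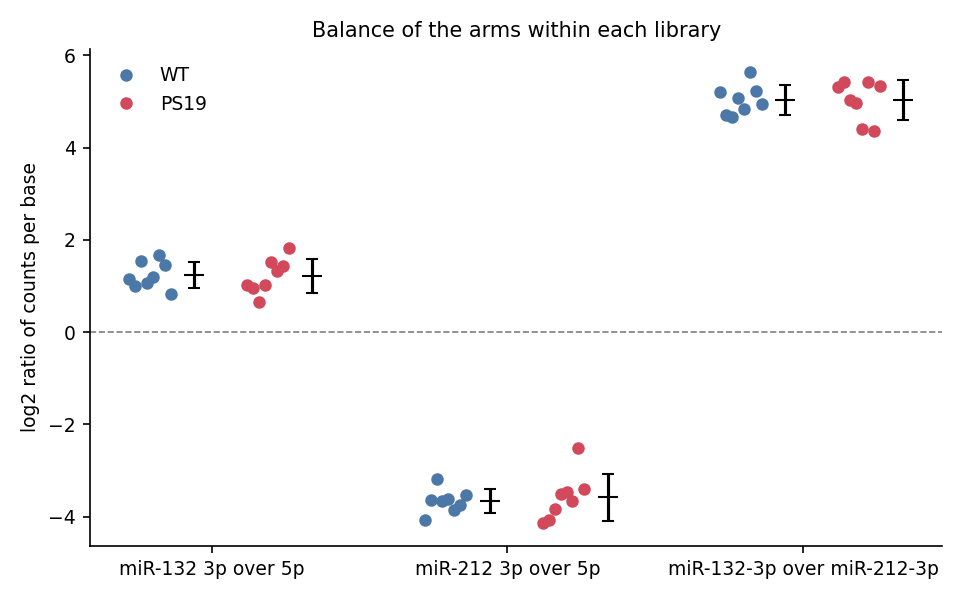
Log2 ratio of normalized counts per base in each library (points; WT blue, PS19 red) with the group mean ± SD (black bars, n = 8), for the 3p over the 5p arm of each hairpin and for miR-132-3p over miR-212-3p. The miR-132 ratio is above 0 and the miR-212 ratio below 0 in all 16 libraries, with 1 PS19 library (replicate 7) at -2.51 above the others of the miR-212 ratio.

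The arms varied together across the 16 mice. For the 6 pairs of arms, Pearson's r of log2 normalized counts ran from 0.797 to 0.941 and Spearman's rho from 0.738 to 0.932 (permutation test, 16 relations in the family, adjusted p from 5.33e-05 to 0.000663 for r and from 8e-05 to 0.00304 for rho). Without the 2 libraries farthest from the median of 1 arm of the pair, the first in the order miR-132-3p, miR-132-5p, miR-212-3p, r ran from 0.648 to 0.917. Within PS19 it ran from 0.701 to 0.982 and within WT from 0.905 to 0.956, and within the 10 libraries coded G from 0.781 to 0.96. Over all 16 libraries the arms of the miR-132 hairpin gave the highest r, and miR-132-5p with miR-212-3p the lowest. Within PS19, within WT and within the G libraries the lowest was miR-132-3p with miR-212-3p, and within WT the highest was miR-132-5p with miR-212-5p.

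Each arm also moved with the miRNA share of its library. Pearson's r with that share ran from 0.719 to 0.773 and Spearman's rho from 0.621 to 0.668 (permutation test, adjusted p from 0.00102 to 0.00265 for r and from 0.00889 to 0.013 for rho). Without the 2 libraries farthest in share, r ran from 0.631 to 0.781, and within the libraries coded G from 0.691 to 0.856. Libraries richer in miRNA thus tended to read higher in the arms, with exceptions: PS19 replicate 1, with a share of 32.6%, was below PS19 replicate 2, which had a smaller share, in all 4. The members are themselves part of that share, at 0.506% ± 0.116 of the miRNA signal in PS19 and 0.498% ± 0.173 in WT (SD, n = 8 each).

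Expressed per 1000000 of miRNA signal, the arms still varied together but less closely. The 6 pairs had r from 0.504 to 0.82 and rho from 0.453 to 0.785 (permutation test, adjusted p from 0.000453 to 0.0469 for r and from 0.00121 to 0.0799 for rho). Without the 2 libraries farthest from the median of the first arm of each pair, r ran from 0.444 to 0.78. Within WT it ran from 0.779 to 0.906, within PS19 from 0.254 to 0.742 and within the libraries coded G from 0.467 to 0.836. The pair that missed the threshold by rho was miR-132-5p with miR-212-3p, with a rho of 0.453. Whether the correlations differed between the genotypes was not tested.

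The spread between mice narrowed on this scale. The highest library exceeded the lowest by 2.75-fold for miR-132-3p, 2.86-fold for miR-132-5p, 3.42-fold for miR-212-3p and 2.22-fold for miR-212-5p, where normalized counts gave 3.85-fold, 5.71-fold, 4.29-fold and 4.49-fold. In counts per 1000000 of miRNA signal, miR-132-3p was at 2731 ± 641 in PS19 and 2684 ± 956 in WT, and miR-132-5p at 1206 ± 419 and 1144 ± 439 (SD, n = 8 each). miR-212-5p was at 1036 ± 236 and 1076 ± 369, and miR-212-3p at 85.0 ± 27.7 and 80.7 ± 28.1 (SD, n = 8 each). The genotypes overlapped on this scale as on the other.

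**Figure D5:**
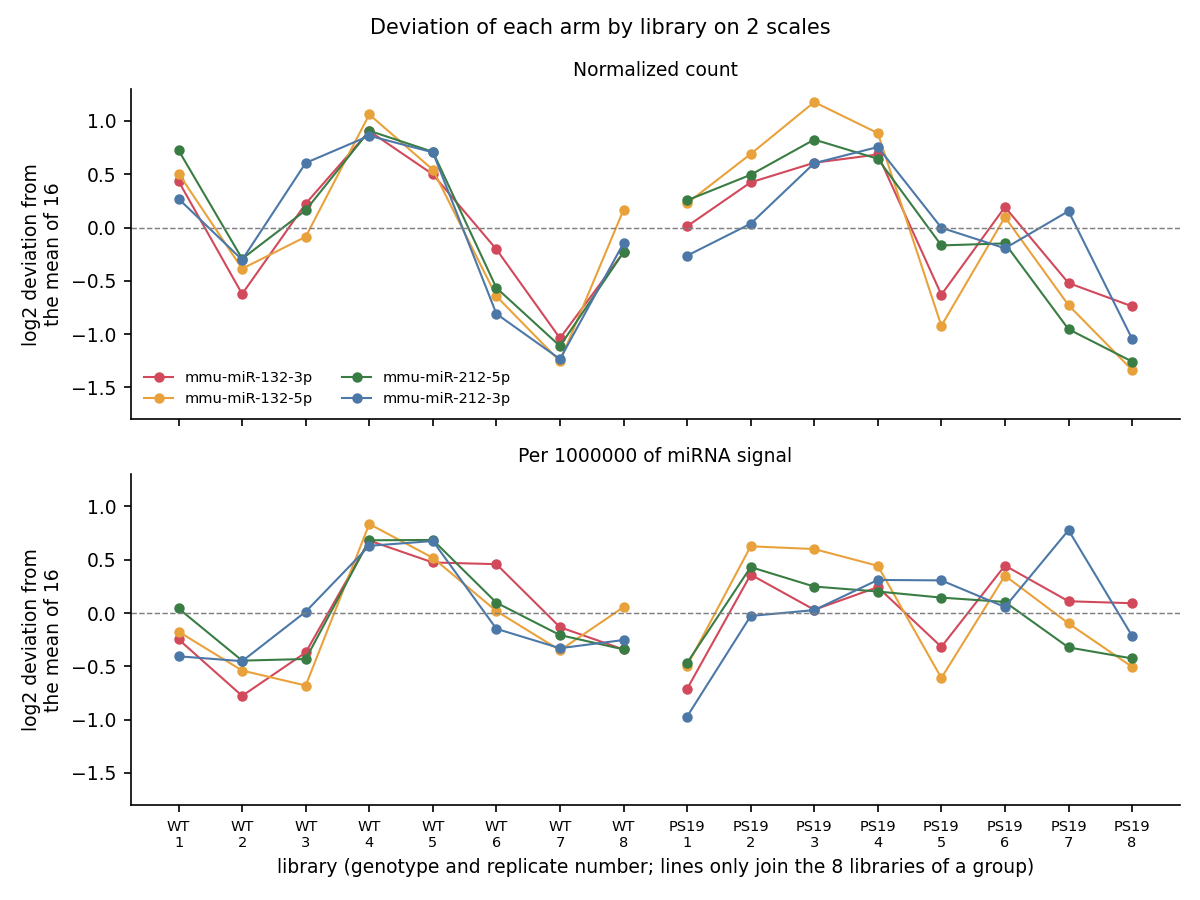
Log2 deviation of each arm (colours) from its mean over the 16 libraries, by library, for normalized counts (top) and per 1000000 of miRNA signal (bottom), with 1 added before taking logs. The 4 lines run close together in the top panel (r from 0.797 to 0.941) and still move together, less closely, in the bottom panel (r from 0.504 to 0.82).

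How particular this was to the cluster was described by ranking the tested miRNA features outside the cluster, with both precursors left out, by their correlation with each arm after the genotype means were taken off. For miR-132-3p, none of these correlated more closely than miR-132-5p (r = 0.941) or miR-212-5p (r = 0.917), and 21 exceeded miR-212-3p (r = 0.821). The median r of the others with miR-132-3p was 0.487 on normalized counts and -0.037 per 1000000 of miRNA signal. On the latter scale 2 features exceeded miR-132-5p (r = 0.774), 2 exceeded miR-212-5p (r = 0.761) and 20 exceeded miR-212-3p (r = 0.663). On normalized counts, 3 features stood closer to miR-132-5p than its partner miR-132-3p did, 3 closer than miR-212-5p and 101 closer than miR-212-3p. For miR-212-5p, 0 stood closer than miR-132-5p, 4 closer than miR-132-3p and 57 closer than its own partner miR-212-3p. For miR-212-3p, 25 to 55 stood closer than the other arms. Per 1000000 of miRNA signal these counts were 6, 3 and 64 for miR-132-5p, 0, 0 and 18 for miR-212-5p in the same order, and 25 to 72 for miR-212-3p. These are descriptions over 16 libraries, and every feature of a library shares that library's depth and miRNA share.

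Features with identical values were next reduced to 1 of each set, which left 5719 features outside the cluster and its precursors, 732 of them miRNA features. Of these, the ones most like miR-132-3p by the same measure were miR-128-1-5p (r = 0.909), mmu_circ_0013399 and mmu_circ_0013400 (r = 0.886 each), and among miRNAs miR-129-1-3p and miR-674-3p (r = 0.884 each). For miR-132-5p they were miR-24-2-5p (r = 0.950), miR-24-3p (r = 0.947) and miR-129-1-3p (r = 0.947). For miR-212-5p they were miR-30a-3p (r = 0.926), miR-674-3p (r = 0.926) and miR-664-3p (r = 0.921). For miR-212-3p they were miR-152-3p (r = 0.912), miR-3081-3p (r = 0.886) and miR-425-5p (r = 0.885). miR-129-1-3p and miR-674-3p stood near 2 arms each, and none of the 3 features most like miR-212-3p stood near another arm by this rule.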

How the data were processed

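Small RNA was sequenced from prefrontal cortex tissue, 1 library per mouse, of 8 mice per genotype (Norgen MicroRNA kit, NEBNext small RNA libraries, NextSeq single-end reads). The authors aligned the reads with STAR 2.5.3a in COMPSRA to mm10, counted them per feature and divided the counts by DESeq2 1.42.1 size factors, which gave the deposited normalized signal in 1 table. In every library 100% of values were whole multiples of the value of 1 read within a tolerance of 0.01, from which reads were recovered; in WT replicates 4 and 6 that value was close to 1. Depth was 13187096 to 23058568 reads.

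Genotypes came from the sample labels. Features with a mean of at least 5 were tested with limma 3.58.1 (R 4.3.3; lmFit, eBayes with a trend) on log2(value + 1), genotype alone in the model, with Benjamini-Hochberg adjustment over 6024 features; fold changes on this scale understate those of low features. Exact permutation tests covered all 12870 assignments, and correlations used 100000 permutations. All p-values are two-sided. edgeR 4.0.16 and DESeq2 1.42.0 on recovered reads were alternatives, beside other scalings (library total, miRNA total), pseudocounts of 0.5 and 5, no filter, a mean of at least 20, array weights, a replicate block, the code letter and leaving out each library. The limma step was tested on simulated data. Mature miRNAs were the names that start with mmu-miR or mmu-let, a rule that does not separate let-7 precursors from mature let-7. Sequences came from RefSeq, where 1071 of these 1254 names were found.

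The arms and the miRNA lists were chosen with earlier results of these data known. Named features were the 4 arms, their precursors, miRNAs sharing a seed, cell type markers and the 3 features most correlated with each arm. From each list, those at an unadjusted p under 0.05 were named, otherwise the lowest and highest. Outside this rule, miR-134-5p, miR-138-5p, miR-182-5p, miR-183-5p, miR-96-5p and miR-485-5p were named after their values were seen. Same-numbered PS19 and WT libraries were not treated as pairs, since the labels tie the numbers to no litter or batch. Their deviations from the group means correlated positively in all 8 pairs, above 0.1 in 6. A fit with the replicate number as a block was therefore among the alternatives.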

Additional observations from a re-analysis of the deposited data

Results flagged for a closer look

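The log2 ratio of miR-212-3p to miR-212-5p per base stood apart in PS19 replicate 7, at -2.51 where the next PS19 library was at -3.41. That gap was 0.549 of the group's range, above Dixon's 95% critical value for 8 values. The library read 374 normalized counts for miR-212-3p, above the PS19 median of 340, and 2238 for miR-212-5p, below the PS19 median of 4543. Of 22 sets of values examined in this way 1 stood out, and chance alone would give 1.1.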

How the results depend on the processing

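No arm passed an adjusted p of 0.05 under any of the 29 alternatives. The differences lay near 0 in the main fit, and their signs were not stable over the alternatives. Leaving out 1 library at a time gave log2 differences from -0.14 to 0.14 for miR-132-3p, from -0.15 to 0.22 for miR-132-5p, from -0.16 to 0.16 for miR-212-3p and from -0.24 to 0.10 for miR-212-5p. With the code letter as a term, or with G libraries alone, the values were -0.14 for miR-132-3p, -0.33 for miR-132-5p and -0.27 for miR-212-3p. The median over tested miRNA features was -0.34 in both fits. DESeq2 gave -0.016 for miR-132-3p and -0.058 for miR-212-3p, for which edgeR gave -0.024 and array weights -0.027. The cause of these changes of sign was not tested. With a replicate block the values were 0.01, 0.02, 0.01 and -0.08 in the order above, as without it, and the standard errors fell, from 0.364 to 0.290 for miR-132-5p and from 0.327 to 0.209 for miR-212-5p. Only 4 of 16 libraries correlated best with the one of the same number, and the block raised the features at an unadjusted p under 0.05 from 241 to 419 (miRNA features from 18 to 51). That count was 123 scaled to the miRNA total, 680 without a filter, 136 at a mean of at least 20, 418 with array weights, 124 with the code letter and 121 with G libraries alone. For miRNA features it was 29, 69, 4, 48, 9 and 16 in the same order, 36 with the replicate number as a linear term, 31 by DESeq2, 30 by edgeR and 14 to 46 with 1 library left out. The arm balances moved by less than the spread between mice under all 19 alternatives run for them. With 8 mice a group the comparison is limited by the spread between mice: the 95% interval of miR-132-5p ran from -0.73 to 0.78 as reported and from -1.57 to 0.92 with the code letter as a term.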
